A study of Homo sapiens with 24 samples.

Results

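Untreated cells labelled LNCaP CE were compared with untreated parental LNCaP cells. The comparison used the 6 libraries so titled, 3 a group, out of the 24 in the series. All 60660 features of the deposited tables were considered, and the 19393 genes that passed a filter on low counts were tested. LNCaP is an established androgen-sensitive prostate cancer line from a lymph node metastasis. Per the labels, the CE cells are a chronic-exposure derivative: parental cells were passaged in rising concentrations of Acetalax (oxyphenisatin acetate, a former laxative) until they were stably resistant, and then kept in drug-free medium before RNA was taken. Both groups were grown in the same serum-containing RPMI-1640 medium and received no drug before extraction, and all libraries carry the same batch label. Whether the CE cells are a clone or a pool is not stated. The other 6 LNCaP libraries, 3 parental and 3 CE after 10 µM Acetalax for 4 h, shared the model's estimate of spread and served as a second comparison of the same kinds of cells. Levels are TPM (transcript abundance scaled for gene length and library size), and differences are log2 fold changes of CE over parental control from edgeR's quasi-likelihood test, given with a standard error and a Benjamini-Hochberg adjusted p over all genes tested.

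In luminal prostate cells the transcription factors FOXA1 and HOXB13 take part in driving secreted proteases such as KLK3, the prostate-specific antigen. Epithelial cells hold together through E-cadherin and claudins and express keratins, and repressors of the ZEB and SNAI families bind E-box motifs in promoters of such genes. Mesenchymal cells instead express vimentin and a fibrillar collagen matrix. TRPM4, the channel the series is built around, is opened by intracellular calcium and lets monovalent cations such as sodium into the cell.

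The labels call all these libraries an epithelial cancer cell line of the prostate, and the CE libraries went against this. Over 11 prostate luminal markers the summed level was 5576 to 8578 TPM in the parental libraries and 15.7 to 18.3 TPM in the CE libraries, with 11 and 4 of the markers at a mean of 1 TPM or more. Over 8 simple epithelial markers it was 1692 to 2150 TPM and 8.68 to 11.2 TPM. Over 7 mesenchymal markers it was 181 to 476 TPM and 4400 to 4682 TPM. FN1 made up most of the parental sum and VIM most of the CE sum. Of these markers VIM, CDH2, ZEB1, SPARC and COL1A2 were higher in every CE library than in every parental library. FN1 was lower in CE, and COL1A1 did not pass the test. Of markers of other cell types, the summed level of 7 melanocyte markers was 5.92 to 9.75 TPM in the parental and 19.5 to 22.7 TPM in the CE libraries, where 1 of them, TYRP1 at 18.8, 22.0 and 22.0 TPM, made up nearly all of it and 5 were under a mean of 0.1 TPM. That of 5 neuroendocrine markers was 1.85 to 2.19 and 9.32 to 9.62 TPM. The summed level of 5 immune markers was 0.09 to 0.47 TPM in the parental and 0.19 to 0.3 TPM in the CE libraries, that of 4 endothelial markers 4.91 to 6.76 and 0.3 to 0.36 TPM, and that of 3 basal epithelial markers 2.15 to 4.04 and 0.25 to 0.35 TPM. Of the melanocyte markers, SOX10 and MLANA held 0 counts in both groups. CE stands below for the libraries labelled LNCaP CE, and whether these cells derive from LNCaP was not tested, because the tables hold no genotype. In bulk libraries fewer cells of a type and less RNA per cell cannot be told apart.

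Totals of expected counts were 43440476 to 53268294 in the parental and 45844310 to 50561256 in the CE libraries. Mitochondrially encoded genes took 3.36% to 3.63% of the counts in the parental and 1.3% to 1.54% in the CE libraries. The 3 CE libraries were close to one another (Pearson r 0.997 to 0.998 over log values of 14837 protein-coding genes), whereas r among the parental libraries was 0.976 to 0.997. Parental control 2 stood apart: 1113 genes differed at least 2-fold between it and the mean of parental controls 1 and 3, while 90 differed so between those. It was low in hypoxia and stress-response genes and high in cell-cycle genes. Values without it are given for some of the genes and lists where it mattered.

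TRPM4 (chr19:49157741-49211836, plus strand, GRCh38) was at 107, 91.1 and 98.6 TPM in the parental libraries and 9.73, 9.66 and 8.87 TPM in the CE libraries. Every CE library lay below every parental library, and TRPM4 was lower in CE by 2.60 on the log2 scale (SE 0.11, adjusted p = 2.42e-09, edgeR), a 6.06-fold difference. From the TPM values the means differed 10.5-fold, and limma on log2(TPM + 1) gave -3.26. For 11702 genes at 1 TPM or more in both groups, the log2 ratio of mean TPM minus the count-based log2 fold change had a median of -0.10, and percentiles 5 and 95 were -0.34 and 0.14. For TRPM4 this difference was -0.79, and 0.649% of these genes had a lower one. Genes under 1 TPM in a group are not among them. For some of those named below, such as IGF2BP1, MITF and SPINT2, the TPM ratio and the count-based fold lie further apart than for TRPM4. TPM depends on the effective length that RSEM estimates from the transcripts in use, and transcript-level values were not used here. The TRPM4 expected counts were 5180, 5751 and 5110 in the parental and 729, 836 and 779 in the CE libraries. In PC3, the other line of the series, TRPM4 was at 45.3 ± 4.62 TPM in parental and 17.3 ± 1.78 TPM in CE controls (SD, n = 3). In an edgeR fit of all 24 libraries the change was -2.63 ± 0.10 in LNCaP and -1.49 ± 0.09 in PC3, and the test of their difference gave -1.14 ± 0.13 with an adjusted p of 1.94e-07. In that fit 56.8% of 21955 genes differed between the lines in this way. The difference between the lines was tested on counts only, and its size on the TPM scale was not tested.

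Other TRPM channels and the ATP-sensitive potassium channel partners that share the SUR1 and SUR2 subunits were measured in a list of 12 genes, of which 9 were tested. In CE, 6 were lower, 2 were higher and 1 did not pass. TRPM8, the cold and menthol receptor that is androgen-dependent in prostate, was at 112, 48.2 and 108 TPM in the parental libraries and 0, 0.01 and 0.05 TPM in the CE libraries. Only 2 counts were found over the 3 CE libraries, a 9960-fold difference with a 95% counting interval of 2760 to 82300. TRPM2, an oxidant-gated calcium channel, was at 56.0, 79.3 and 51.6 against 0.01, 0.14 and 0.02 TPM (log2 fold change -9.52 ± 0.55, adjusted p = 3.47e-08, and log2 fold change -10.90 without CE control 2, its highest CE library). ABCC8, which encodes SUR1, a regulatory subunit reported to partner TRPM4, was at 2.06, 0.38 and 1.08 against 0.11, 0.1 and 0.51 TPM (log2 fold change -2.72 ± 0.70, adjusted p = 0.00431), with CE control 3 above parental control 2 (log2 fold change -3.34 without CE control 3), and KCNJ11, its pore-forming potassium channel partner, at 4.95, 2.77 and 4.83 against 0.94, 1.15 and 1.5 TPM (log2 fold change -1.69 ± 0.24, adjusted p = 6.99e-05). TRPM7, a channel fused to a kinase, was at 24.4, 17.3 and 28.8 against 25.2, 20.9 and 22.4 TPM and did not pass the test (adjusted p = 0.801); it was chosen after its values were seen. TRPM1 held 0 counts in both groups. The 2 higher members, TRPM3 and TRPM6, chosen after their values were seen, were low: TRPM3 held 5 counts over the parental and 54 over the CE libraries, and TRPM6 8 and 122. Their TPM, 0.14, 0 and 0.02 against 0.1, 0.06 and 0.57 TPM for TRPM3 and 0.33, 0 and 0 against 0.14, 0.14 and 0.2 TPM for TRPM6, overlapped between the groups.

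**Figure D1:**
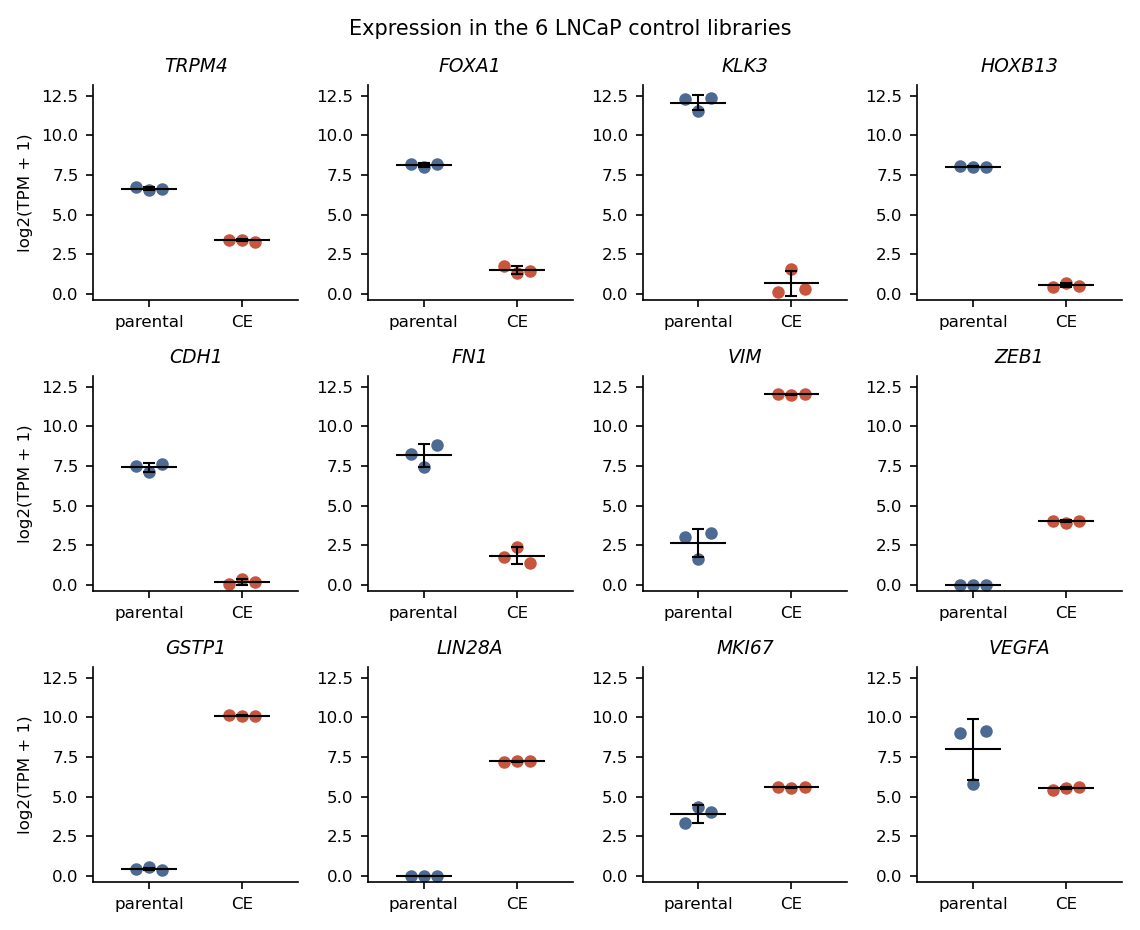
Expression of 12 genes in the 6 LNCaP control libraries. The vertical axis is log2(TPM + 1), points are libraries, bars are the mean and SD of 3 libraries, blue marks parental and red marks CE. TRPM4, FOXA1, KLK3, HOXB13, CDH1, FN1 and VEGFA are lower in every CE library than in every parental library, and VIM, ZEB1, GSTP1, LIN28A and MKI67 are higher.

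Across all genes, 14595 of 19393 passed the test at an adjusted p of 0.05, or 75.3%: 6975 were higher in CE (36.0%) and 7620 were lower (39.3%). The median log2 fold change was -0.06 and the median absolute one 1.18. A difference of at least 8-fold was found for 25.5% of genes, with 1832 higher (9.45%) and 3105 lower (16.0%). The TPM of the 3 CE and 3 parental libraries did not overlap for 76.4% of genes, 35.4% higher in CE and 41.0% lower. Counts in a gene list are read against these shares, and a gene is called higher or lower below where it passed the test. Of the tested genes, 267 (1.38%) had a mean of at least 10 TPM in parental and under 0.1 TPM in CE, and 204 of these were protein-coding. In the other direction there were 168 (0.866%), of which 147 were protein-coding. Scaling by library totals alone moved the median of all genes to -0.24, and no called list member changed sign under it or under DESeq2's size factors. A kept sign is not a kept call. Under library totals alone the higher genes went from 8 to 7 in the esterase list and from 10 to 9 in the calcium list. The lower genes went from 9 to 11 in the hypoxia list. Without parental control 2, 15356 of 19879 genes passed (77.2%), 486 calls were lost and 0 turned direction. Leaving that library out also moved the fitted fold of genes nearly absent from parental cells: without it the log2 fold change was 14.58 for POSTN, 10.88 for LUM, 9.78 for COL1A2, 11.52 for TIMP1, 12.70 for HMGA2, 11.10 for CYP1B1 and 14.29 for OSTN, against 13.70, 9.83, 8.99, 10.78, 12.06, 10.47 and 14.90 with it. All parental OSTN counts came from parental control 1, and without that library the fitted value of 19.13 rests on no parental count. Folds of genes nearly absent from CE likewise depended on single CE libraries, most often CE control 2. Without CE control 2 the log2 fold change was -13.57 for TMPRSS2, -13.61 for LIMCH1, -13.09 for PYCR1 and -11.73 for GPNMB. With it these values were -12.89, -12.53, -11.72 and -10.47. For CLDN3 the fall deepened without CE control 1 (-12.70 against -10.91) and for PRAC1 without CE control 3 (-14.94 against -13.00).

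**Figure D2:**
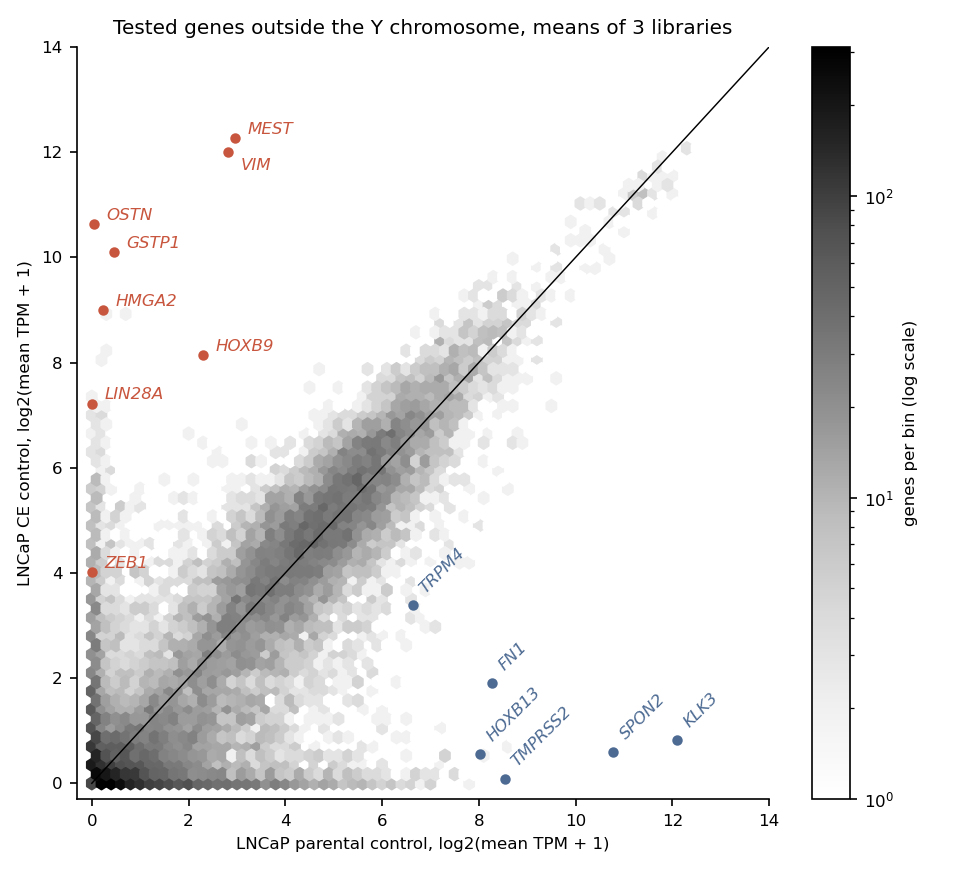
Mean expression of tested genes in LNCaP parental control (horizontal) and CE control (vertical), both as log2(mean TPM + 1) over 3 libraries; genes of the Y chromosome are not drawn, grey shading counts genes per bin on a log scale and the line marks equal levels. Named genes higher in CE are red and those lower are blue; a band of genes lies along each axis, where 1 group is at or near 0.

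The luminal prostate programme was lower almost throughout. Of 29 tested genes of the luminal list, 27 were lower in CE, 1 was higher and 1 did not pass, with a median log2 fold change of -8.23 against -0.06 over all genes, and 25 were at least 8-fold lower. FOXA1, a pioneer factor that opens chromatin in luminal cells, was at 297, 258 and 292 TPM in the parental libraries and 2.44, 1.46 and 1.73 TPM in the CE libraries (log2 fold change -7.28 ± 0.12, adjusted p = 4.02e-12). HOXB13, a prostate-restricted homeobox factor, was at 267, 254 and 254 against 0.37, 0.62 and 0.44 TPM (log2 fold change -8.97 ± 0.20, adjusted p = 3e-11). The highest CE value of this pair was the 2.44 TPM of FOXA1. The ETS factor SPDEF was at 117, 160.1 and 117 against 0, 0 and 0.07 TPM (log2 fold change -12.17 ± 0.50, adjusted p = 2.36e-09). Its 4 CE counts were all in CE control 3, and without that library the fitted value of -15.80 rests on no CE count. The secreted and membrane products were lower too. KLK3 was at 5057, 2921 and 5219 TPM in the parental libraries and 0.08, 2.0 and 0.25 TPM in the CE libraries (log2 fold change -12.54 ± 1.08, adjusted p = 1.11e-06); CE control 2 held more of it than the other two CE libraries, and without it the log2 fold change was -14.48. KLK2 was at 647, 385 and 669 against 0.62, 0.54 and 0.61 TPM, KLK4 at 253, 254 and 237 against 0.07, 0.08 and 0.2 TPM, the serine protease TMPRSS2 at 427, 264 and 418 against 0.03, 0.08 and 0.07 TPM and the protease hepsin (HPN) at 273, 122 and 295 against 0, 0.02 and 0.03 TPM. FOLH1, which encodes the prostate-specific membrane antigen, had a low level in CE, at 836, 676 and 851 against 3.27, 4.28 and 3.32 TPM (log2 fold change -7.70 ± 0.14, adjusted p = 1.22e-11). The exceptions were FKBP5, a steroid-receptor cochaperone, higher at 90.0, 106 and 91.0 against 122, 115 and 122 TPM (log2 fold change 0.42 ± 0.11, adjusted p = 0.0049), and the kinase CAMKK2, which did not pass at 30.3, 36.1 and 30.7 against 32.3, 29.8 and 32.9 TPM (adjusted p = 0.817). Both were chosen after their values were seen.

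The KLK3 promoter is shown because KLK3 had the largest fall by the naming rule and its proximal promoter holds a core motif of androgen response elements. The 300 bases run from 250 before to 50 after the start (chr19:50854665-50854964, plus strand, RefSeq on GRCh38.p14), with the core motif in capitals:
KLK3: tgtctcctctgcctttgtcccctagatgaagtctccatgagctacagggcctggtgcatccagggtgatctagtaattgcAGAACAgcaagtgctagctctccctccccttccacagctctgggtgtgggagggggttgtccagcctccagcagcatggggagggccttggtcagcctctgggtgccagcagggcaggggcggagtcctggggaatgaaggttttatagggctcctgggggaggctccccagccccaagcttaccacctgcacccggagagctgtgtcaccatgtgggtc
The core motif was searched as TGTTCT or AGAACA on both strands, and it occurs 1 time here. It was found in 4 of 28 promoters of 20 matched luminal list genes (14.3%) and in 14.8% of all 35116 promoters of this length. No binding was measured in this study's libraries.

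Epithelial adhesion and identity genes were lower as well. Of 32 tested, 30 were lower in CE, 0 higher and 2 did not pass, with a median of -8.27; 28 were at least 8-fold lower. E-cadherin (CDH1) was at 178, 136 and 200.4 TPM in the parental libraries and 0.04, 0.31 and 0.12 TPM in the CE libraries (log2 fold change -11.05 ± 0.43, adjusted p = 1.43e-09, and log2 fold change -11.78 without CE control 2). EPCAM, an epithelial adhesion protein, was at 90.7, 103 and 91.9 against 0.59, 0.55 and 0.62 TPM (log2 fold change -7.39 ± 0.19, adjusted p = 8.18e-11). The paired simple-epithelial keratins KRT8 and KRT18 were at 441, 335 and 452 against 0.65, 0.68 and 0.56 TPM and at 449, 483 and 443 against 6.16, 6.24 and 5.32 TPM. None of these groups overlapped, and KRT18 had the highest level of them in CE. Tight-junction claudins were lower too: CLDN3 at 144, 100.3 and 140.1 against 0.15, 0.03 and 0 TPM, CLDN4 at 281, 167 and 275 against 0.24, 0.35 and 0.26 TPM and CLDN7 at 504, 353 and 510.1 against 2.74, 2.13 and 1.72 TPM. SPINT2, an inhibitor of membrane serine proteases, was at 448, 353 and 431 against 1.34, 1.2 and 0.37 TPM (log2 fold change -9.99 ± 0.20, adjusted p = 1.68e-11). A pair of regulators of the epithelial state were at or near 0 in CE. GRHL2, a transcription factor of epithelial enhancers, was at 60.2, 53.5 and 63.5 against 0.02, 0.02 and 0 TPM, with 2 counts over the 3 CE libraries, and ESRP1, which sets epithelial splicing, at 52.6, 31.9 and 56.5 against 0.03, 0.11 and 0.11 TPM (log2 fold change -9.07 ± 0.39, adjusted p = 3.13e-09). KRT7, a keratin chosen after its values were seen, did not pass and was low in both groups, at 0.43, 0 and 0.15 against 0.16, 0.3 and 0.11 TPM.

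CLDN7 is shown as an example of a promoter of the epithelial list that holds E-boxes, the motif bound by ZEB and SNAI repressors. Of its RefSeq starts, the window with most matches (chr17:7262429-7262728, minus strand, GRCh38.p14) is printed with CACCTG and CAGGTG, each the reverse complement of the other, in capitals:
CLDN7: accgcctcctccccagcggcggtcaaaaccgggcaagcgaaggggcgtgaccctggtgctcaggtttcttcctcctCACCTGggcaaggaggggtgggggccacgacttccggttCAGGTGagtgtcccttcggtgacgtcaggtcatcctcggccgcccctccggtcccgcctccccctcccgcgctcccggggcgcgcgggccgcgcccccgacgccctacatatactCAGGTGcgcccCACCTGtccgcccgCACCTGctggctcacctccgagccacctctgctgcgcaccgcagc
It holds 5 matches, and the window of the other start holds 0. Gene and window were picked for display, so this number is not a result about the list. E-boxes of this form were found in 11 of 19 promoters of 15 matched epithelial list genes (57.9%), in 13 of 28 promoters of the luminal list (46.4%) and in 20.6% of all promoters. CDH1 and EPCAM were not among the 15 matched genes. The median number of CG dinucleotides was 25 in the epithelial, 9.5 in the luminal and 14 in all promoters. The shares were not adjusted for such differences in base composition. Promoters of one gene can overlap, and a match is a description of letters, not of binding.

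The host transcript of the miR-200c and miR-141 hairpins, MIR200CHG (chr12:6963246-6964447, plus strand), was at 23.0, 16.5 and 23.4 against 0, 0 and 0 TPM; it was chosen after its values were seen. All 3 CE libraries held 0 counts, a difference of at least 109-fold against 3 counts over the group. These miRNAs are known to repress ZEB1 and ZEB2 in epithelial cells. Both lie inside the host by coordinates and are printed with the seed, bases 2 to 8, in capitals:
miR-200c-3p: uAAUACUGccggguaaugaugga
miR-141-3p: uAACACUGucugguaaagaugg
Their seeds, AAUACUG and AACACUG, differ. Mature miRNAs were not measured in these poly(A) libraries.

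Mesenchymal and matrix genes were mostly higher, with exceptions. Of 30 genes, 26 were tested: 17 were higher in CE, 5 lower and 4 did not pass, with a median of 4.06, or 3.56 with genes at 0 in a group set to their lower bound. VIM, the intermediate filament of mesenchymal cells, was at 7.22, 2.15 and 8.69 TPM in the parental libraries and 4144, 3981 and 4258 TPM in the CE libraries (log2 fold change 9.55 ± 0.63, adjusted p = 1.14e-07). N-cadherin (CDH2) was at 0.03, 0.05 and 0.03 against 27.5, 27.0 and 27.3 TPM (log2 fold change 10.92 ± 0.22, adjusted p = 1.94e-11). ZEB1 was at 0.01, 0 and 0 against 15.3, 14.4 and 15.6 TPM, with 1 count over the 3 parental libraries, and ZEB2 at 0.1, 0.06 and 0 against 4.28, 4.12 and 3.38 TPM (log2 fold change 7.89 ± 0.51, adjusted p = 8.96e-08). The 2 repressors were thus absent or nearly so from every parental library and present in every CE library, ZEB1 at the higher level. The collagen-binding protein SPARC was at 1.47, 0.8 and 1.84 against 90.1, 88.4 and 82.5 TPM and the metastasis-associated S100A4 at 3.77, 1.26 and 3.83 against 100.1, 112 and 109 TPM. The collagen chaperone SERPINH1, named for the size of its rise and not one of the 30 genes, was at 0.63, 0.31 and 0.68 against 468, 469.7 and 478 TPM. Collagen genes differed among themselves. COL3A1 was at 0.57, 0.57 and 0.75 against 448, 446 and 473 TPM (log2 fold change 9.81 ± 0.12, adjusted p = 7.27e-13), COL1A2 at 0.18, 1.01 and 0.79 against 268, 273 and 286 TPM (log2 fold change 8.99 ± 0.55, adjusted p = 6.46e-08) and COL6A3 at 0.05, 0 and 0.01 against 134, 130.1 and 143 TPM (log2 fold change 13.09 ± 0.40, adjusted p = 2.46e-10). Without parental control 2 the COL1A2 value was 9.78, and without parental control 1 the COL6A3 value was 14.71. COL1A1, which pairs with COL1A2 in type I collagen, did not pass, at 20.2, 7.12 and 21.2 against 13.0, 11.7 and 11.9 TPM (adjusted p = 0.605), and COL6A1 was lower, at 117, 66.0 and 116.1 against 17.2, 15.9 and 16.9 TPM (log2 fold change -2.38 ± 0.20, adjusted p = 1e-06); these 2 were chosen after their values were seen. Fibronectin (FN1), often taken as a mesenchymal marker, was also lower, at 310.0, 169.9 and 444 TPM in the parental libraries and 2.42, 4.32 and 1.58 TPM in the CE libraries (log2 fold change -6.91 ± 0.40, adjusted p = 4.18e-08).

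In the list of immune and stromal markers, 13 of 24 genes were tested, 9 higher and 2 lower. The small proteoglycans decorin (DCN) and lumican (LUM) were at 0.02, 0.07 and 0.11 against 164, 152 and 161 TPM and 0.04, 0.22 and 0.16 against 109.9, 98.1 and 111 TPM, and THY1, a surface glycoprotein of fibroblasts, at 0, 0.14 and 0 against 90.7, 89.0 and 99.4 TPM; the parental THY1 counts all came from parental control 2. POSTN, TIMP1 and HGF are not in this list and were named for the size of their rise. Periostin (POSTN) was at 0.01, 0.05 and 0.04 against 419, 391 and 422 TPM, the metalloprotease inhibitor TIMP1 at 0.17, 0.44 and 0.21 against 469, 432 and 469 TPM and HGF, the ligand of the MET receptor, at 0.17, 0.41 and 0.27 against 333, 324 and 343 TPM. The highest parental value among these 6 genes was the 0.44 TPM of TIMP1. The 2 lower members, chosen after their values were seen, were the endothelial von Willebrand factor (VWF) at 4.7, 4.89 and 6.75 against 0, 0 and 0.01 TPM (1310-fold lower, with a 95% counting interval of 362 to 10800 because the lower group held 2 counts, adjusted p = 3.66e-09) and the basal keratin KRT14 at 2.15, 3.86 and 3.48 against 0, 0 and 0 TPM (at least 102-fold lower, against 3 counts over the group at 0, adjusted p = 7.31e-06). The leukocyte marker PTPRC held 0 counts in parental and 5 in CE, and the endothelial marker PECAM1 was listed at 0.01, 0 and 0.01 and 0.03, 0 and 0.03 TPM.

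Among long non-coding RNAs the largest rise was that of DNM3OS (chr1:172138397-172144840, minus strand), the host of the miR-199a and miR-214 hairpins, at 0, 0.28 and 0 against 269, 264 and 279 TPM (log2 fold change 11.79 ± 0.47, adjusted p = 1.78e-09). It was listed at 0 in parental controls 1 and 3, and without parental control 2 the fitted value rests on no parental count. The mature sequences that lie inside it are printed because they are the known products of this transcript, with seeds in capitals:
miR-199a-5p: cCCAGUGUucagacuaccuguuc
miR-199a-3p: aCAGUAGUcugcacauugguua
miR-214-3p: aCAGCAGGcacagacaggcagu
The 3 seeds differ from each other and from those of miR-200c and miR-141. The next rises were LINC02303 at 0, 0 and 0 against 129, 147 and 129.8 TPM and the endogenous retroviral locus ERVK-28 at 0, 0 and 0 against 120.0, 119 and 128 TPM, with 0 parental counts in both, which gives at least 2439-fold and at least 1170-fold. The largest falls were AL162582.1 at 183, 177 and 207 against 0, 0 and 0 TPM, ST8SIA6-AS1 at 104, 89.4 and 102 against 0.06, 0.14 and 0.02 TPM and FLJ20021 at 87.5, 107 and 100.3 against 0.05, 0.23 and 0.05 TPM. ST8SIA6-AS1 is antisense to another gene, and reads of such pairs cannot be told apart where the strand setting of counting is not given.

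HOX genes, which record position along the body axis, were higher in CE in every cluster but for one gene. Of 39 HOX genes 38 were tested, 37 were higher, and HOXB13 alone was lower; the median was 5.67, or 5.20 with genes at 0 in a group set to their lower bound, and 27 were at least 8-fold higher. HOXB9 was at 4.47, 2.62 and 4.69 TPM in the parental libraries and 283, 269 and 295 TPM in the CE libraries (log2 fold change 6.29 ± 0.26, adjusted p = 2.58e-09) and HOXC10 at 2.69, 2.17 and 2.27 against 173, 177 and 169.8 TPM (log2 fold change 6.12 ± 0.13, adjusted p = 2.69e-11). HOXB8 was at 0.06, 0.05 and 0.11 against 45.2, 42.5 and 49.6 TPM (log2 fold change 9.16 ± 0.25, adjusted p = 1.09e-10) and HOXB2 at 0, 0.23 and 0 against 54.5, 50.4 and 58.7 TPM (log2 fold change 9.34 ± 0.56, adjusted p = 4.83e-08). Parental HOXB2 counts came from 1 library, parental control 2, so that its fold is set by that library. The HOXD cluster was at or near 0 in parental throughout: the highest value of any HOXD gene there was 0.12 TPM, while HOXD9 reached 40.7, 42.3 and 42.5 TPM in CE. HOXC6 was at 37.8, 26.0 and 40.4 against 68.9, 61.9 and 71.0 TPM (log2 fold change 0.76 ± 0.14, adjusted p = 0.000402). HOXD9 and HOXC6 were chosen after their values were seen.

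**Figure D3:**
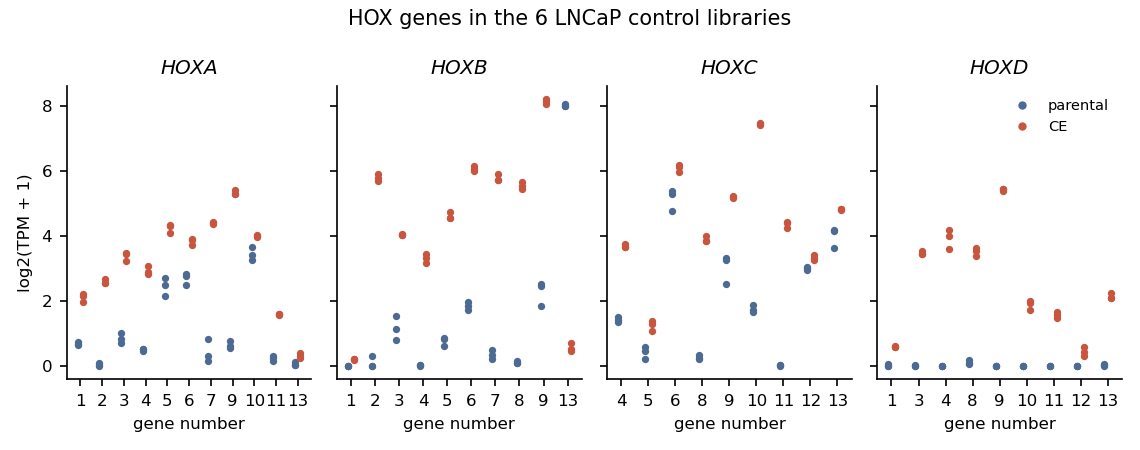
HOX genes by cluster. The horizontal axis is the gene number within the cluster, the vertical axis log2(TPM + 1), and each point is a library (blue parental, red CE). For 37 of the 38 tested genes, over all 4 clusters, every CE library is above every parental one. The exception is HOXB13, which is at 267, 254 and 254 TPM in parental and at 0.37, 0.62 and 0.44 TPM in CE. Of the 39 genes drawn, 1 was too low in counts to be tested.

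Other developmental regulators moved in both directions. In the neural crest list 17 of 18 genes were tested, 10 higher and 6 lower, with a median of 2.79. The homeobox genes DLX1 and DLX2 were at 1.77, 2.62 and 1.86 against 172, 165 and 181 TPM and 2.43, 2.16 and 2.32 against 244, 224 and 254 TPM, and the orphan nuclear receptor NR2F1 at 0.25, 0.17 and 0.3 against 147, 135 and 152 TPM (log2 fold change 10.27 ± 0.14, adjusted p = 2.19e-12). The AP-2 factors went opposite ways: TFAP2A was higher at 11.1, 6.57 and 10.1 against 55.1, 52.6 and 54.9 TPM (log2 fold change 2.79 ± 0.16, adjusted p = 2.86e-08), and TFAP2C was at 24.2, 22.6 and 24.1 against 0, 0.02 and 0 TPM, with 2 counts over the CE libraries. SOX9 did not pass, at 1.47, 1.19 and 1.66 against 1.17, 1.35 and 1.57 TPM (adjusted p = 0.873), and NGFR, the low-affinity neurotrophin receptor, was higher at a low level, at 0.05, 0.02 and 0 against 0.48, 0.25 and 0.27 TPM. In the melanocyte list 15 of 25 genes were tested, 6 higher and 7 lower. TYRP1, a melanosome enzyme, was at 0.35, 0.6 and 0.51 against 18.8, 22.0 and 22.0 TPM (log2 fold change 5.57 ± 0.38, adjusted p = 1.65e-07), and OCA2, a melanosome transporter, at 0.02, 0.02 and 0.03 against 2.32, 2.16 and 2.18 TPM. MITF, the master regulator of melanocytes, was lower, at 2.35, 2.07 and 2.66 against 0.07, 0.05 and 0.14 TPM (log2 fold change -6.13 ± 0.27, adjusted p = 3.86e-09), as were PMEL at 6.62, 3.25 and 6.57 against 0.33, 0.57 and 0.39 TPM and GPNMB at 49.1, 5.88 and 57.4 against 0, 0.27 and 0.01 TPM. SOX10, MLANA and TYR did not reach testing.

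In the neuroendocrine and neuronal list 13 of 20 genes were tested, with 11 higher, 1 lower and a median of 5.28. By level, the neurofilament NEFL and UCHL1 stood far above the granule markers. NEFL, the light neurofilament, was at 2.14, 1.94 and 2.14 TPM in the parental libraries and 586, 564 and 594 TPM in the CE libraries (log2 fold change 8.21 ± 0.10, adjusted p = 7.27e-13). UCHL1, a neuronal deubiquitinase, was at 0.97, 1.37 and 1.02 against 379.9, 377 and 377 TPM (log2 fold change 8.77 ± 0.37, adjusted p = 2.68e-09), and SOX2, a factor of neural and pluripotent cells, at 0, 0 and 0.03 against 8.98, 10.7 and 10.6 TPM, with 2 parental counts. Chromogranin A (CHGA) was at 0, 0 and 0 against 0.64, 0.94 and 0.47 TPM, at least 40.7-fold higher against 3 counts over the parental group, and synaptophysin (SYP) at 2.16, 1.85 and 1.97 against 7.76, 7.5 and 7.58 TPM (log2 fold change 1.94 ± 0.12, adjusted p = 7.74e-08). ENO2, the neuronal enolase, was lower, at 174, 16.1 and 198 against 22.1, 24.8 and 26.6 TPM (log2 fold change -2.25 ± 0.83, adjusted p = 0.0293), but its level in parental control 2 was below all CE libraries. INSM1 did not reach testing.

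Oncofetal and cancer-testis genes moved in both directions. Of 28, 22 were tested, 10 higher and 11 lower. The RNA-binding proteins of embryonic tissue were higher. LIN28A, which blocks maturation of let-7 miRNAs, was at 0.01, 0.01 and 0 TPM in the parental libraries and 147, 149 and 149 TPM in the CE libraries, and its paralog LIN28B at 0.01, 0.01 and 0 against 53.3, 49.6 and 53.7 TPM; the parental libraries held 2 and 3 counts of them. IGF2BP1, an mRNA-stabilising protein, was at 0.11, 0.02 and 0.23 against 122, 121 and 122 TPM (log2 fold change 12.29 ± 0.19, adjusted p = 3.15e-12), and HMGA2, an architectural chromatin protein and let-7 target, at 0.23, 0.19 and 0.11 against 522, 479.8 and 525 TPM (log2 fold change 12.06 ± 0.39, adjusted p = 3.39e-10, and log2 fold change 12.70 without parental control 2). H19, an imprinted non-coding RNA chosen after its values were seen, was at 0.52, 0.46 and 1.27 against 42.0, 38.6 and 37.7 TPM (log2 fold change 6.09 ± 0.36, adjusted p = 4.18e-08, and log2 fold change 6.71 without parental control 3). The MAGE genes of the X chromosome went the other way. MAGEA3 was at 165, 176 and 153 against 0.04, 0.07 and 0.22 TPM (log2 fold change -10.92 ± 0.29, adjusted p = 8.03e-11) and MAGEA6 at 104, 111 and 101 against 0, 0.02 and 0 TPM, with 1 count over the CE libraries. The sequences of this pair are almost the same, so the split of reads between them is an estimate. PRAME, another cancer-testis antigen, was higher, at 54.6, 53.7 and 54.3 against 149, 146 and 156 TPM (log2 fold change 1.55 ± 0.11, adjusted p = 1.5e-07).

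Genes of ion transport and cell volume, which surround TRPM4 in function, differed gene by gene. Of the sodium pump and FXYD list, 10 of 14 genes were tested, 4 higher and 4 lower. ATP1B1, a beta subunit of the pump, was at 72.3, 51.6 and 71.6 TPM in the parental libraries and 1.05, 0.92 and 1.13 TPM in the CE libraries (log2 fold change -5.87 ± 0.18, adjusted p = 2.69e-10). The other widely expressed beta subunit, ATP1B3, did not pass, at 186, 164 and 168 against 158, 149 and 155 TPM (adjusted p = 0.991). In TPM every CE library lay below every parental library for it, a difference that the count-based test did not show. ATP1B2, a beta subunit of neural tissue, was higher at a low level, at 0.03, 0.19 and 0.09 against 2.03, 1.79 and 1.96 TPM (log2 fold change 5.31 ± 0.49, adjusted p = 1.81e-06, and log2 fold change 5.90 without parental control 3). Of the pump regulators, FXYD3 was at 205, 108 and 222 against 0, 0.35 and 0.08 TPM (log2 fold change -10.51 ± 0.55, adjusted p = 1.54e-08). Most of the CE level was in CE control 2, without which the log2 fold change was -12.07. FXYD5 was at 1.94, 0.68 and 1.23 against 24.6, 22.7 and 20.4 TPM (log2 fold change 4.37 ± 0.28, adjusted p = 9.35e-08). By TPM, ATP1B3 was far above ATP1B1 and ATP1B2 in every CE library.

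Of 30 genes for sodium, potassium and volume regulation, 28 were tested, 10 higher and 16 lower, with a median of -1.01. SCNN1A, the pore-forming subunit of the epithelial sodium channel, was at 71.7, 57.2 and 76.0 TPM in the parental libraries and 1.0, 1.42 and 1.3 TPM in the CE libraries (log2 fold change -6.49 ± 0.16, adjusted p = 6.92e-11). The aquaglyceroporin AQP3 was at 46.4, 28.0 and 44.2 against 0.08, 0.33 and 0.31 TPM (log2 fold change -7.44 ± 0.31, adjusted p = 2.83e-09). Of potassium channels, KCNMA1 was at 39.0, 36.2 and 38.6 against 1.95, 1.95 and 1.87 TPM (log2 fold change -4.34 ± 0.11, adjusted p = 7.54e-11) and KCNK1 at 21.4, 14.1 and 19.1 against 0, 0 and 0 TPM, with 0 counts in CE. The cotransporters moved the other way: SLC12A2, which brings sodium, potassium and chloride into the cell, was at 9.74, 11.6 and 11.8 against 18.8, 18.0 and 18.2 TPM (log2 fold change 0.86 ± 0.10, adjusted p = 1.45e-05), and SLC12A4, which lets potassium and chloride out during regulatory volume decrease, at 0.29, 0.11 and 0.7 against 21.1, 24.1 and 23.3 TPM (log2 fold change 6.37 ± 0.39, adjusted p = 6.27e-08). LRRC8A, the obligatory subunit of the volume-regulated anion channel, was slightly higher, at 21.6, 17.3 and 21.3 against 23.6, 23.6 and 23.4 TPM (log2 fold change 0.34 ± 0.11, adjusted p = 0.0135).

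In the calcium list all 22 genes were tested, 10 higher and 7 lower. STIM1, the calcium sensor of the endoplasmic reticulum, was lower, at 51.9, 43.7 and 49.9 TPM in the parental libraries and 13.6, 15.3 and 13.0 TPM in the CE libraries (log2 fold change -1.87 ± 0.07, adjusted p = 1.09e-09), and the channel it opens, ORAI1, was slightly higher, at 21.5, 30.3 and 20.1 against 31.6, 32.2 and 33.9 TPM (log2 fold change 0.43 ± 0.18, adjusted p = 0.0433). For ORAI1, parental control 2 lay close to the lowest CE library. The calcineurin subunit PPP3CA was at 321, 281 and 354 against 0.71, 0.69 and 0.71 TPM (log2 fold change -8.85 ± 0.13, adjusted p = 2.85e-12). TRPV6, an epithelial calcium channel, was at 35.5, 18.3 and 36.9 against 0, 0.02 and 0 TPM and the secretory-pathway pump ATP2C2 at 27.5, 16.6 and 24.8 against 0, 0 and 0 TPM, with 1 and 0 counts in CE. TRPC1 was higher, at 0.18, 0.1 and 0.29 against 12.7, 10.4 and 12.4 TPM (log2 fold change 5.93 ± 0.37, adjusted p = 7.5e-08).

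Acetalax is a diester, and the list of esterases, conjugating enzymes and efflux pumps was examined for this reason. Of 29 genes, 27 were tested, 8 higher and 16 lower, with a median of -1.83. CES2, a carboxylesterase, was at 23.3, 29.8 and 26.2 TPM in the parental libraries and 30.8, 33.5 and 29.7 TPM in the CE libraries (log2 fold change 0.32 ± 0.08, adjusted p = 0.00343); the groups overlapped, and in the Acetalax-treated libraries its difference was 0.09 with an adjusted p of 0.327. AADAC, another esterase of the list, was higher, at a mean of 0 TPM in parental and 2.6 TPM in CE (adjusted p = 1.46e-06, edgeR). It was chosen after its values were seen. The glucuronosyltransferases UGT2B17 and UGT2B15, which inactivate androgens, were at or near 0 in CE, at 104, 101 and 101 against 0, 0.05 and 0 TPM and 89.6, 57.0 and 92.8 against 0, 0 and 0 TPM. UGT2B11 of the same family was at 43.6, 41.1 and 44.3 against 0, 0 and 0 TPM. UGT2B genes are close paralogs, so their split is uncertain. ABCB1, the efflux pump P-glycoprotein, did not reach testing, with 4 counts over the parental and 1 over the CE libraries. The dioxin-responsive CYP1B1 was at 0.1, 0.12 and 0.03 against 75.5, 71.4 and 77.5 TPM (log2 fold change 10.47 ± 0.33, adjusted p = 2.98e-10, and log2 fold change 11.10 without parental control 2).

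GSTP1, a glutathione transferase, was at 0.35, 0.46 and 0.3 TPM in the parental libraries and 1119, 1091 and 1098 TPM in the CE libraries (log2 fold change 11.60 ± 0.36, adjusted p = 2.81e-10). It is a textbook case of a gene silenced by promoter CpG methylation in prostate cancer, LNCaP included. Its promoter is printed for that reason, with CG dinucleotides in capitals (chr11:67583562-67583861, plus strand, RefSeq on GRCh38.p14):
GSTP1: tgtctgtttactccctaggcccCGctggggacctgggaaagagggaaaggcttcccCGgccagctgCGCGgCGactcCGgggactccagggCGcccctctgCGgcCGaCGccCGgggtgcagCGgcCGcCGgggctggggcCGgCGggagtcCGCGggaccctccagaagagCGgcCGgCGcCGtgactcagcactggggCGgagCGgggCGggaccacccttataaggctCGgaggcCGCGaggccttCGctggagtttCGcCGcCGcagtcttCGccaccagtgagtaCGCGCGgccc
The window holds 36 CG dinucleotides, more than 87.3% of all 35116 promoters, whose median is 14. Methylation was not measured in these libraries. In PC3 the gene was at 283 ± 38.9 TPM in parental and 1085 ± 5.49 TPM in CE controls (SD, n = 3).

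Of 29 receptor tyrosine kinases, 25 were tested, 14 higher and 8 lower. EGFR was at 43.9, 10.6 and 62.4 TPM in the parental libraries and 0.08, 0.12 and 0.12 TPM in the CE libraries (log2 fold change -8.32 ± 0.84, adjusted p = 4.11e-06), with parental control 2 lowest of its group. ERBB3, the neuregulin receptor, was at 94.4, 64.3 and 106 against 2.84, 3.18 and 2.71 TPM (log2 fold change -4.77 ± 0.18, adjusted p = 1.29e-09), and the collagen receptor DDR1, found in epithelia, at 92.8, 63.9 and 94.7 against 15.5, 15.2 and 15.3 TPM (log2 fold change -2.32 ± 0.14, adjusted p = 5.74e-08). Its mesenchymal counterpart DDR2 was higher, at 0.92, 0.74 and 0.76 against 87.9, 77.6 and 90.8 TPM (log2 fold change 7.07 ± 0.14, adjusted p = 1.41e-11), as were FGFR1 at 5.73, 6.1 and 4.99 against 55.1, 48.7 and 53.0 TPM and EPHA2 at 3.85, 4.23 and 3.62 against 26.9, 27.3 and 25.9 TPM. AXL, the GAS6 receptor often raised in resistant cells, was at 0, 0 and 0.01 against 7.02, 7.03 and 7.9 TPM, with 1 parental count. Of 19 integrins 16 were tested, 5 higher and 7 lower. ITGAV and ITGA5, alpha subunits of RGD-binding integrins, were at 24.0, 22.0 and 26.3 against 71.0, 64.7 and 68.5 TPM and 24.7, 11.5 and 29.4 against 49.0, 45.5 and 55.2 TPM, ITGA2, a collagen-binding subunit, at 1.17, 1.17 and 1.23 against 0.08, 0.04 and 0.05 TPM and ITGB7, a leukocyte subunit, at 1.8, 0.78 and 3.1 against 0.22, 0.19 and 0.29 TPM. ITGA4 was at 0, 0.01 and 0 against 0.13, 0.56 and 0.24 TPM, with 3 parental counts, all from 1 library, and ITGB3 did not reach testing.

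In the cell death list 26 of 28 genes were tested, 12 higher and 13 lower, where 36.0% and 39.3% of all genes were. NINJ1, which ruptures the plasma membrane in lytic death, was lower, at 91.4, 104 and 91.9 TPM in the parental libraries and 32.8, 31.4 and 33.3 TPM in the CE libraries (log2 fold change -1.46 ± 0.15, adjusted p = 4.55e-06). PMAIP1, BIK and BMF, BH3-only activators of apoptosis, were at 19.6, 13.1 and 21.4 against 0.08, 0.09 and 0.11 TPM, 16.6, 12.3 and 16.9 against 0.25, 0.17 and 0.36 TPM and 17.6, 4.71 and 17.3 against 0.66, 0.8 and 0.88 TPM, all lower. The inflammatory caspase CASP4 was at 19.0, 16.4 and 16.4 against 0.41, 0.51 and 0.56 TPM (log2 fold change -5.27 ± 0.27, adjusted p = 1.39e-08). BCL2 was low in both groups, at 0.8, 1.22 and 1.3 against 0.49, 0.44 and 0.53 TPM (log2 fold change -1.03 ± 0.22, adjusted p = 0.00131), and in the Acetalax-treated libraries it did not pass (adjusted p = 0.0749). BAX, a pore-forming effector chosen after its values were seen, was higher, at 88.8, 100.2 and 91.1 against 369, 369.5 and 354 TPM (log2 fold change 2.18 ± 0.13, adjusted p = 5e-08).

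In the list of 20 tumour suppressor and repair genes 9 were higher, 6 were lower and 5 did not pass. MSH6, a DNA repair protein, was higher, at 14.9, 29.1 and 16.0 TPM in the parental libraries and 111, 109 and 110.4 TPM in the CE libraries (log2 fold change 2.55 ± 0.38, adjusted p = 8.88e-05), with parental control 2 the highest of its group. MTAP, a methionine salvage enzyme, was higher too, at 20.8, 31.6 and 19.0 against 47.9, 42.6 and 42.3 TPM (log2 fold change 1.04 ± 0.21, adjusted p = 0.00101). CDKN1A, an inhibitor of cyclin-dependent kinases, was lower, at 149, 125 and 178 against 46.5, 46.5 and 45.1 TPM (log2 fold change -1.60 ± 0.15, adjusted p = 2.03e-06). CDKN2A, another such inhibitor, did not pass, at 27.4, 40.8 and 26.7 against 21.3, 24.3 and 22.1 TPM (adjusted p = 0.165), though its TPM did not overlap between the groups.

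Hypoxia, stress and cell-cycle genes are those in which parental control 2 mattered. VEGFA, the angiogenic growth factor, was at 513, 53.9 and 573 TPM in the parental libraries and 42.6, 46.5 and 48.2 TPM in the CE libraries (log2 fold change -3.04 ± 0.83, adjusted p = 0.00623): parental controls 1 and 3 were far above the CE libraries, and parental control 2 was only just above them. NDRG1, a hypoxia- and androgen-induced gene, was at 603, 52.4 and 681 against 0.6, 0.63 and 0.32 TPM (log2 fold change -10.61 ± 1.38, adjusted p = 3.39e-05), so that for it parental control 2 was lowest in its group yet still above CE. BNIP3, a mitophagy receptor, was at 849.8, 155 and 969 against 95.4, 103 and 98.1 TPM, and DDIT4, an inhibitor of mTORC1, at 1048, 127 and 1086 against 126, 128 and 178 TPM; for DDIT4 parental control 2 lay within the CE range. Of 22 hypoxia and glycolysis genes 3 were higher and 9 lower, where 36.0% and 39.3% of all genes were. Without parental control 2 these counts were 2 and 16, where 77.2% of all genes passed in either direction. The neuronal-type glucose transporter SLC2A3 was higher, at 2.49, 0.72 and 1.84 against 181, 193 and 194 TPM (log2 fold change 7.31 ± 0.44, adjusted p = 4.92e-08), as was CA9, a carbonic anhydrase, at 2.58, 0.05 and 2.44 against 7.67, 10.5 and 11.8 TPM (log2 fold change 2.76 ± 1.01, adjusted p = 0.0276), whose value without parental control 2 was 2.17. EGLN3, a prolyl hydroxylase induced by hypoxia, was lower, at 44.7, 9.26 and 48.3 against 0.1, 0.17 and 0.09 TPM (log2 fold change -7.96 ± 0.82, adjusted p = 5.03e-06), and ANKRD37 was at 134, 17.7 and 144 against 10.2, 11.6 and 9.94 TPM.

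Of 20 integrated stress response genes 3 were higher and 9 lower, where 36.0% and 39.3% of all genes were. Without parental control 2 these counts were 3 and 13, where 77.2% of all genes passed in either direction. DDIT3, which encodes CHOP, was at 264, 26.4 and 341 TPM in the parental libraries and 29.01, 27.4 and 44.3 TPM in the CE libraries (log2 fold change -2.49 ± 0.74, adjusted p = 0.0101), with parental control 2 below all 3 CE libraries. ATF4, the central factor of this response, did not pass (adjusted p = 0.392), at 686, 413 and 655 against 521, 499.5 and 589 TPM; without parental control 2 its log2 fold change was -0.30 with an adjusted p of 0.0205. ASNS, asparagine synthetase, was at 194, 148 and 197 against 130.0, 126 and 139.7 TPM, with an adjusted p of 0.106 with and 0.048 without that library. The amino acid transporters went opposite ways: SLC7A5 was higher, at 13.5, 3.98 and 19.1 against 237, 219.5 and 247 TPM (log2 fold change 4.57 ± 0.51, adjusted p = 9.56e-06), and SLC7A11, the cystine importer, lower, at 49.9, 20.4 and 74.2 against 5.83, 4.99 and 6.78 TPM (log2 fold change -2.93 ± 0.41, adjusted p = 5.77e-05). ATF3 was lower, at 97.0, 22.0 and 119 against 4.37, 6.56 and 7.64 TPM (log2 fold change -3.51 ± 0.49, adjusted p = 5.85e-05).

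Of 26 cell cycle genes 17 were higher and 0 lower, where 36.0% of all genes were higher and 39.3% lower. Without parental control 2 these counts were 22 and 0, where 77.2% of all genes passed in either direction. MKI67, the proliferation antigen, was at 8.93, 19.7 and 15.7 TPM in the parental libraries and 46.9, 46.4 and 48.6 TPM in the CE libraries (log2 fold change 1.87 ± 0.40, adjusted p = 0.00127). The S and G2 phase cyclin CCNA2 was at 18.2, 49.9 and 19.0 against 117, 107 and 111 TPM (log2 fold change 2.01 ± 0.49, adjusted p = 0.00317), and without parental control 2 its log2 fold change was 2.74. CCNE1 was at 10.8, 20.3 and 9.59 against 62.2, 64.4 and 55.7 TPM (log2 fold change 2.15 ± 0.30, adjusted p = 5.64e-05). Parental control 2 was the highest parental library for each of these 3 genes and stayed below the CE libraries. Among G1 regulators, CCND1 did not pass, at 161, 163 and 173 against 143, 137 and 142 TPM (adjusted p = 0.369), while CCND2 was at 0.01, 0.03 and 0.05 against 24.3, 23.9 and 25.2 TPM (log2 fold change 9.84 ± 0.27, adjusted p = 1.13e-10, and log2 fold change 10.44 without parental control 3) and CDK6 at 0.36, 0.21 and 0.37 against 10.5, 9.96 and 11.1 TPM (log2 fold change 5.35 ± 0.26, adjusted p = 8.31e-09). For CCND1 the TPM of every CE library was nonetheless below that of every parental library. The culture density of the libraries was not given, and its part in the differences of this list was not tested.

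**Figure D4:**
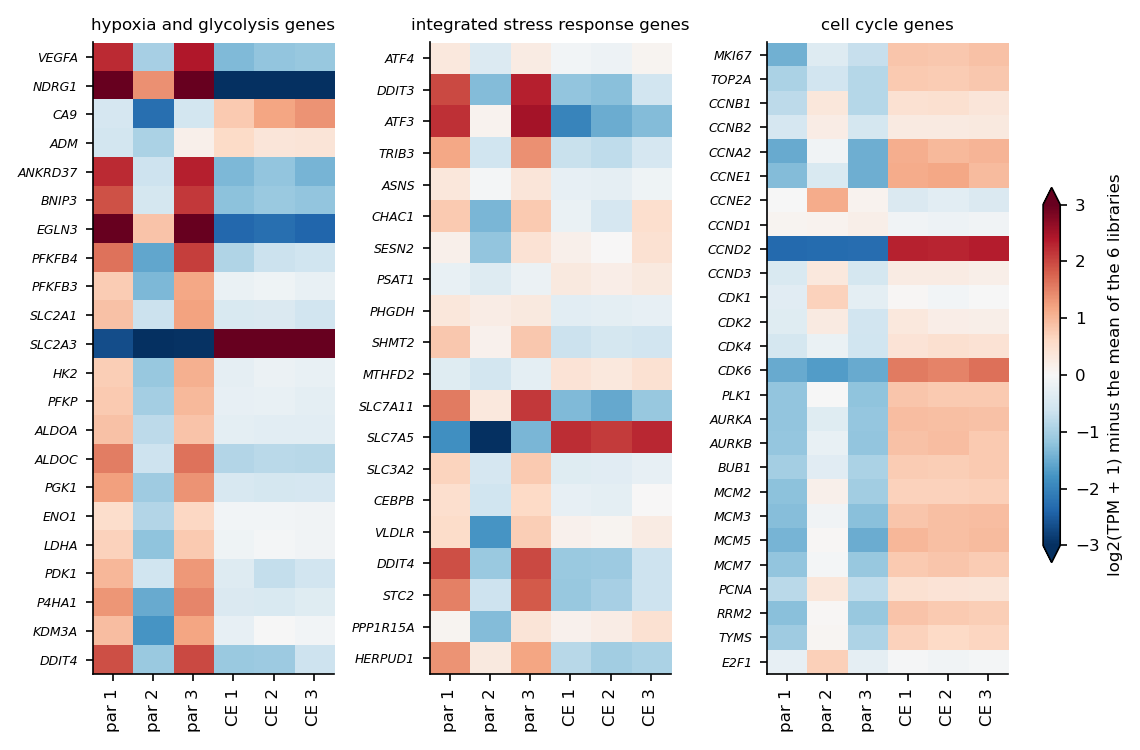
Heat maps of hypoxia and glycolysis, integrated stress response and cell cycle genes in the 6 LNCaP control libraries (par, parental). Colour is log2(TPM + 1) minus the mean of the 6 libraries, and the scale saturates at 3 on either side. Parental control 2 (second column of each map) resembles the CE columns more than its own group for many hypoxia and stress genes, such as VEGFA at 53.9 TPM.

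Antigen presentation and interferon genes were higher in CE. Of 25 tested, 22 were higher, 2 lower and 1 did not pass, with a median of 2.64. Beta-2 microglobulin (B2M), the light chain of class I molecules, was at 454, 353 and 427 TPM in the parental libraries and 1497, 1462 and 1443 TPM in the CE libraries (log2 fold change 1.93 ± 0.08, adjusted p = 2.55e-09). The inducible proteasome subunits PSMB8 and PSMB9 were at 0.96, 0.95 and 0.86 against 35.7, 38.7 and 33.4 TPM and 1.61, 0.99 and 1.4 against 89.2, 103 and 90.7 TPM. IRF1, an interferon-induced transcription factor, was at 6.83, 2.01 and 5.09 against 87.0, 76.2 and 86.7 TPM (log2 fold change 4.36 ± 0.33, adjusted p = 4.09e-07) and the interferon-induced IFIT3 at 0.8, 0.89 and 0.52 against 21.2, 20.1 and 19.1 TPM. HLA-B, a class I heavy chain chosen after its values were seen, was higher, at 109.6, 54.8 and 116.2 against 478, 471 and 476 TPM (log2 fold change 2.27 ± 0.23, adjusted p = 4.14e-06). HLA genes are polymorphic and alike, so reads of some alleles may be assigned elsewhere.

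Genes that every cell uses were not level either. Of 15, 8 were higher, 1 lower and 6 did not pass, with a median of 0.51 and none past 8-fold. GAPDH did not pass, at 5825, 3769 and 6172 TPM in the parental libraries and 4358, 4206 and 4277 TPM in the CE libraries (adjusted p = 0.295), but did without parental control 2 (log2 fold change -0.33, adjusted p = 0.0208). ACTB was higher, at 1637, 2172 and 1597 against 3266, 3101 and 3238 TPM (log2 fold change 0.93 ± 0.15, adjusted p = 0.000162), as were TBP, at 18.3, 18.4 and 18.2 against 33.4, 33.0 and 33.9 TPM (log2 fold change 1.00 ± 0.08, adjusted p = 7.27e-07), and POLR2A, at 41.5, 35.2 and 50.4 against 132, 129.5 and 140.0 TPM (log2 fold change 1.87 ± 0.08, adjusted p = 4.85e-09). HPRT1, PSMB2 and HNRNPA1 were higher by 1.14, 0.76 and 1.34 on the log2 scale. Under scaling by library totals alone 7 were higher and 3 lower, and under DESeq2's size factors 8 and 1.

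**Figure D5:**
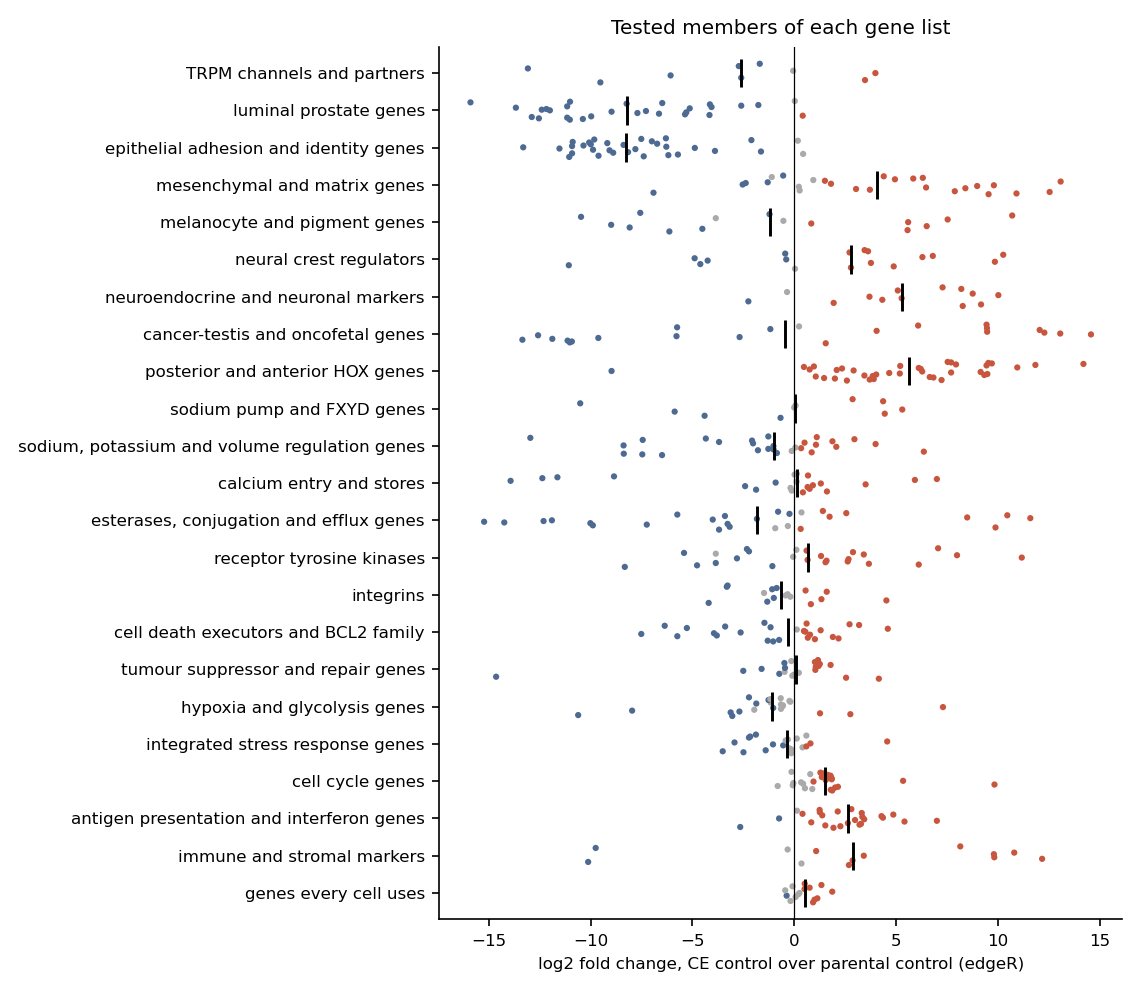
Log2 fold changes of CE control over parental control for the tested members of 23 gene lists. Each point is a gene, red where it was higher, blue where it was lower and grey where it did not pass the test; the black bar is the median of the list. Most points of the luminal list (27 of 29 lower, with FKBP5 higher) and of the epithelial list (30 of 32 lower) lie to the left of 0, and those of the HOX list, apart from HOXB13, to the right.

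The remaining genes with the largest changes belong to none of the lists. OSTN, which encodes the secreted peptide osteocrin, had the largest rise, at 0.08, 0 and 0 TPM in the parental libraries and 1629, 1491 and 1619.6 TPM in the CE libraries, and in PC3 CE it was at 0.507 ± 0.300 TPM (SD, n = 3). Matrix Gla protein (MGP) was at 0.24, 0.23 and 0.06 against 1065, 1023 and 1073 TPM and the hyaluronan link protein HAPLN1 at 0.16, 0.15 and 0.24 against 749, 749 and 727 TPM. MEST, an imprinted gene of mesodermal tissue, was at 6.14, 8.86 and 5.28 against 4909, 5058 and 4834 TPM (log2 fold change 9.62 ± 0.33, adjusted p = 6.06e-10). All 4 were at or under 8.86 TPM in every parental library, and the lowest CE value of any was 727 TPM. Among the falls, SPON2, a secreted matrix protein of prostate cancers, was at 1693, 1874 and 1677 TPM in the parental libraries and 0.51, 0.59 and 0.44 TPM in the CE libraries (log2 fold change -11.74 ± 0.29, adjusted p = 6.35e-11). PRAC1, a small nuclear protein of prostate and colon encoded beside HOXB13, was at 651, 510.2 and 643 against 0, 0 and 0.15 TPM, with 1 count in CE. CAMK2N1, an inhibitor of CaM kinase II, was at 358, 171 and 361 against 0.03, 0.1 and 0.13 TPM, the actin-linked LIMCH1 at 309, 187 and 364 against 0.02, 0.17 and 0.02 TPM and the proline synthesis enzyme PYCR1 at 268, 338 and 259.7 against 0.08, 0.18 and 0.04 TPM. PYCR1 is an enzyme of general metabolism, and no CE library held more than 0.18 TPM of it.

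The second comparison, CE against parental cells after 4 h with Acetalax, used none of these 6 libraries but shared the fit. One of its libraries, parental Acetalax 3, stood apart from its group as well; with it and parental control 2 left out, 16990 genes passed in this comparison and 16818 between the controls. There 14797 of 19393 genes passed (76.3%). Of the 14595 calls between the controls, 13362 were made in the same direction (91.6%), 41 in the opposite one and 1192 did not pass; the 13362 are 90.3% of the calls in the treated libraries. CE control libraries correlated with CE Acetalax libraries at r 0.992 to 0.993 over 14837 protein-coding genes, with PC3 CE controls at 0.947 to 0.949, with their own parental controls at 0.762 to 0.798 and with PC3 parental controls at 0.751 to 0.758. Such r values are taken over genes, not over independent samples, and only describe the libraries. FOXA1, for example, was at 143 ± 14.0 TPM in parental and 1.2 ± 0.125 TPM in CE cells after Acetalax (SD, n = 3), and VIM at 5.51 ± 3.52 and 4610.2 ± 20.8 TPM.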

How the data were processed

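RNA from 24 samples of the lines LNCaP and PC3 was sequenced as stranded, poly(A)-selected, paired-end libraries, per the labels' protocols. The authors deposited RSEM expected counts and TPM values per gene; the submitters' processing notes name FastQC, STAR 2.7, RSEM and the GRCh38 (hg38) genome. Which annotation and which strand option were used for counting is not stated there. Both tables hold 60660 features; 10.2% of the deposited expected counts were not whole, and rounding them to whole numbers for the tests shifted library totals by at most 9.6e-05%. A further 2 columns, 1 a table, belong to no sample and were not used. Genes of the Y chromosome and XIST were tested with the rest but are not reported. Some genes that the naming rule picked are not reported here either; they stay in the counts and medians of their lists.

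The 12 LNCaP libraries (4 groups of 3) were fitted together with edgeR 4.0.16 (R 4.3.3): filterByExpr with a minimum count of 10, TMM scaling, glmQLFit and glmQLFTest, with Benjamini-Hochberg adjustment over all genes tested and a threshold of 0.05. limma 3.58.1 on log2(TPM + 1) and DESeq2 1.42.0 were alternatives, with other scaling, filters, libraries in the fit, each library left out, and a replicate block. On simulated counts 59% of 2-fold and 100% of 4-fold changes were recovered. There all libraries were drawn from the parental control means with a single spread shared by all genes, and few genes were changed. These rates therefore do not describe a comparison in which 75.3% of genes passed. The labels call the replicates biological triplicates without naming separate cultures, so p-values speak only of the spread among these libraries, and that spread may be technical. Same-numbered libraries did not deviate together (r -0.06, -0.00678 and 0.0302), so numbers were not treated as pairs. Replicate pairs of these groups differed by more than counting noise (chi-square of 3.49 to 220 per degree of freedom). Counting intervals and the limit of 3 counts for a group at 0 are at the 95% level and cover counting error only.

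Named genes are TRPM4, the 12 protein-coding genes with the largest called rise and fall in log2(mean TPM + 1) whose groups do not overlap, the 3 such long non-coding RNAs each way, and, of each list, its core genes and up to 4 further members with the largest differences. The members and the 23 lists were chosen with earlier results of these data known. Gene types and positions come from GENCODE 29, which 58429 feature IDs matched. Promoters and miRNAs come from RefSeq tables (GRCh38.p14).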

Additional observations from a re-analysis of the deposited data

Results flagged for a closer look

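The lower TRPM4 level in CE than in parental controls differed in size between the 2 lines of the series. In the edgeR fit of all 24 libraries the log2 fold change was -2.63 ± 0.10 in LNCaP and -1.49 ± 0.09 in PC3, and the test of the difference gave -1.14 ± 0.13 (adjusted p = 1.94e-07). TRPM4 was lower in all 3 CE control libraries than in all 3 parental control libraries of LNCaP. The same test passed for 56.8% of the 21955 genes in that fit. These values rest on counts. Between the LNCaP controls TRPM4 was 6.06-fold lower by counts and 10.5-fold lower by mean TPM, and the difference between the lines was not tested on TPM.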

How the results depend on the processing

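The number of genes that differed between CE and parental controls, 14595, stayed within 1.5 times that value in every alternative run: 14625 with DESeq2's size factors in edgeR, 14955 with DESeq2, 15538 without a low-count filter, 13587 with the 6 control libraries alone, 15446 with all 24, and 12093 to 15147 with limma on TPM. Leaving out each library in turn gave 13870 to 15356. With the replicate block the count was 14124 and TRPM4 was at -2.60 (adjusted p = 1.61e-07); in the treated libraries the block gave 14369 against 14797. For the difference of the TRPM4 change between lines the block gave -1.14 (adjusted p = 4.63e-06), and leaving out each library gave -1.07 to -1.22. The block changed no call on these 4 results. Of 178 named genes with a fit, 162 kept their direction and their side of the threshold in every setting run, 16 did not and 0 reversed. Of the counts of list members, 741 stayed within 1.5 times and 41 moved. Genes absent from 1 group have folds that only bound the difference, and where a group holds 1 to 3 counts the interval is wide.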
